A study of Mus musculus with 9 samples.

Results

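The genes described here are 33 genes of glucose uptake, glycolysis, lactate handling and pyruvate entry into mitochondria. They were listed by name for their roles, with earlier results of these data known. Their rows were taken from a count table of 53280 genes, and all 33 were among the 21150 genes with enough counts to be tested. Their levels per length came from a table of transcript abundances, summed over the transcripts of each gene symbol. The tissue was neural retina of mouse pups at postnatal day 4 (P4), and the study, by its title, asks how melanopsin-expressing ganglion cells set the number of rod photoreceptors. There were 5 pools of Opn4 knockout pups (KO1 to KO5) and 4 pools of their wildtype littermates (WT1 to WT4). Opn4 encodes melanopsin, the photopigment of intrinsically photosensitive retinal ganglion cells.

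Pups of both genotypes came from crosses between Opn4 heterozygotes and were housed at about 300 lux until the retinas were taken, 6 to 7 h into the light phase. Each pool held 4 retinas from 2 animals of 1 genotype and was sequenced as 1 poly-A RNA library. The knockout is an inherited allele, so every cell of the pup carried it. The labels do not give the part of Opn4 that was removed, the strain, the sex of the pups or the litters in a pool. Opn4 itself stood at 1.07 to 1.82 CPM (counts scaled to library size) in knockout pools and at 11.4 to 12 CPM in wildtype pools (log2 fold change −3.10, SE 0.14, edgeR adjusted p = 1.28e-07), so the libraries matched their labels. An exact two-sided permutation test of CPM gave p = 0.0159, the smallest that 5 pools against 4 can give when the one-sided tail is doubled.

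Glycolysis splits glucose into pyruvate in the cytoplasm. Pyruvate is then either reduced to lactate by lactate dehydrogenase and exported by monocarboxylate carriers, or carried into mitochondria and oxidised through the pyruvate dehydrogenase complex. Many steps have several isozymes: HK2, PKM2, PFKFB3, LDHA, ENO1 and GLUT1 are known from proliferating cells, while HK1, ENO2, ALDOC, LDHB and GLUT3 are known from mature neurons. The retina makes lactate even in the presence of oxygen, and photoreceptors are known to use HK2, PKM2 and LDHA for it, so the isoforms of dividing cells and of photoreceptors largely coincide.

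Over all tested genes, 760 of 21150 differed between the genotypes (3.59%, edgeR quasi-likelihood test on counts, adjusted p under 0.05). Of 12 genes of dividing cells, 12 were lower in knockout (median log2 fold change −0.65), and of 11 rod genes 9 were higher (median 0.58). The 11 rod genes summed to 2727 to 4599 CPM over all pools, so the libraries held the photoreceptors that a neural retina should. In bulk tissue, fewer cells of a type and less RNA per cell cannot be told apart. Totals ran from 65.5 M to 86.1 M counts per pool (M, mega). Pool WT3 stood apart in holding 14.1 CPM of Xist, the RNA of the inactive X chromosome, against 710.4 to 1066 CPM in the other pools. It also held 337 CPM of red blood cell marker RNA (7 genes, summed), against 110.5 to 205 CPM in the other wildtype pools and 74.0 to 99.6 CPM in knockout. Pools KO1 and KO2 held 13.8 and 10.8 CPM of lens marker RNA (6 tested genes, summed), against 5.25 to 5.87 CPM in the other pools.

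No member passed the count test between the genotypes: 0 of 33 reached an adjusted p of 0.05 (edgeR quasi-likelihood test), where 3.59% of all tested genes did. The smallest adjusted p was that of Pdk2, at 0.0805. At an unadjusted p under 0.05 there were 8 members (24.2%), against 16.5% of all genes. Of these, 7 lay lower in knockout (Slc2a1, Hk2, Pfkfb3, Tpi1, Pgk1, Eno1 and Slc16a3), a direction in which 7.91% of all genes passed that limit. The remaining 1, Pdk2, lay higher, as did 8.6% of all genes. DESeq2 called 4 of 33 members, with Slc2a1, Pgk1 and Pfkfb3 lower and Pdk2 higher (DESeq2 adjusted p from 0.0162 to 0.0302). It called 1509 of all 21150 genes. The limma test on gene-summed TPM called 0 of 32 tested members, against 2.16% of all genes it tested, and 7 had an unadjusted p under 0.05, against 15.5% of all genes. In the authors' deposited table, 0 of 34 rows of these symbols had a q-value under 0.05 (1.46% of all rows) and 5 had a p-value under 0.05 (11.6% of all rows), with a smallest q-value of 0.226.

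The fold changes of the members were small. Their median was −0.04 on the log2 scale, beside 0.00 for all tested genes, with 13 positive and 20 negative values, and 19 members lay within 0.1 of zero. The 95% intervals had a median half-width of 0.16, and for 32 of 33 members the interval lay above −0.65, the median fold change of the 12 cell cycle genes. The exception was Pdk4, a pyruvate dehydrogenase kinase, which was near the limit of detection (0 to 0.447 CPM, SE 0.74). The plot of fold changes shows each member with its interval beside the medians of the cell cycle and rod genes.

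**Figure D1:**
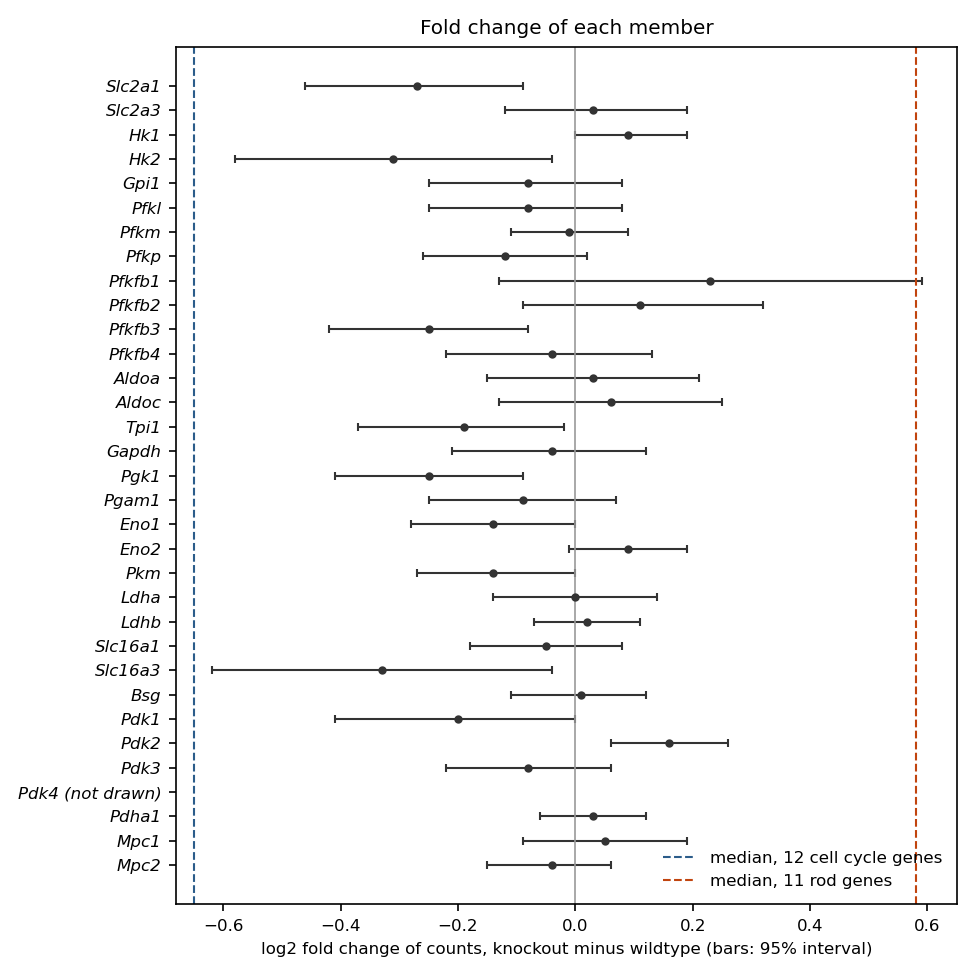
Log2 fold change of counts (x axis, knockout minus wildtype) of each member (y axis, in pathway order), with bars for 95% intervals from the edgeR fit over 5 knockout and 4 wildtype pools. All drawn intervals lie to the right of the dashed line at −0.65, the median of 12 cell cycle genes, and Pdk4 is left out because its SE was 0.74.

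Levels per length were compared in TPM (transcript abundance per length, scaled to the sample). The most abundant members were Gapdh at a mean of 2151 TPM over 9 pools, Ldha at 2120 TPM, Pkm at 1672 TPM, Eno1 at 1583 TPM and Aldoa at 982 TPM. Gapdh and Ldha overlapped in their ranges over pools, at 1843 to 2608 TPM and 1909 to 2508 TPM, and so did Pkm and Eno1, at 1432 to 2046 TPM and 1302 to 1931 TPM. The steps from triose phosphate isomerase to phosphoglycerate mutase followed, with Tpi1 at 731 TPM, Pgk1 at 698 TPM and Pgam1 at 528 TPM. Bsg, which encodes basigin, the chaperone that carries monocarboxylate carriers to the membrane, stood at 568 TPM and Gpi1, glucose 6-phosphate isomerase, at 417 TPM. The early, regulated steps lay lower, with Slc2a1 at 168 TPM, Pfkp at 197 TPM, Hk1 at 108 TPM and Hk2 at 9.27 TPM. The means of Gapdh and Ldha were in the other order in knockout (2060.1 and 2120 TPM) than in wildtype (2264 and 2121 TPM). The plot of TPM by pool shows the levels in both genotypes.

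**Figure D2:**
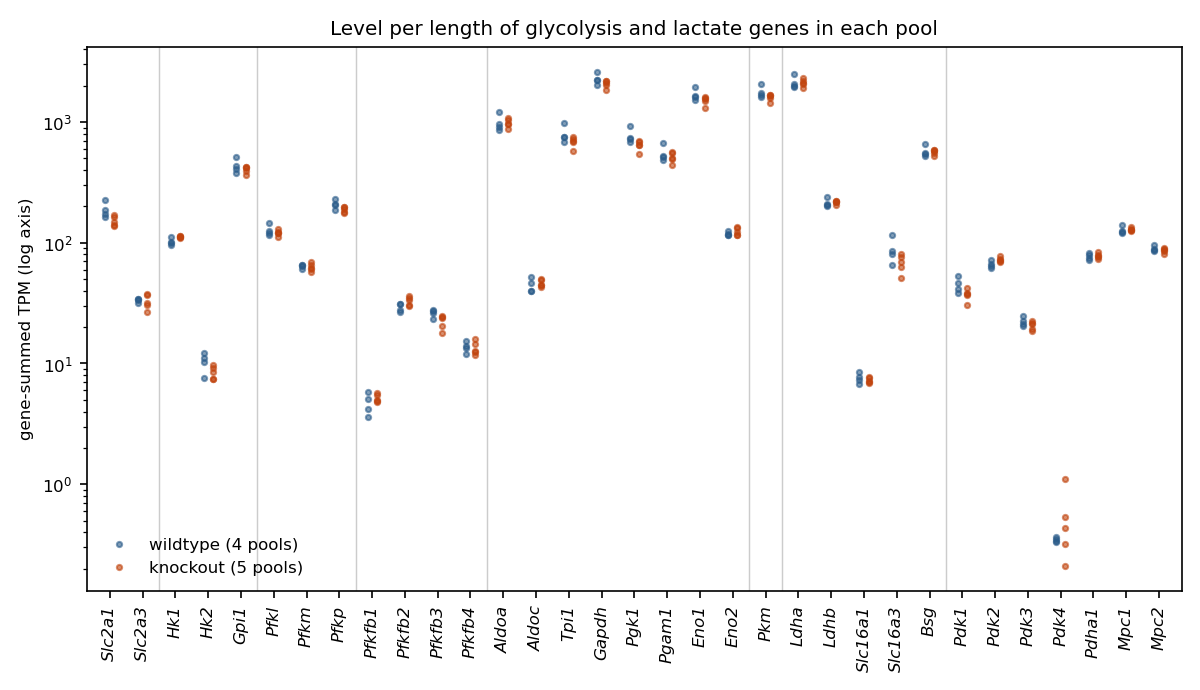
Gene-summed TPM (y axis, log scale) of each member (x axis, in pathway order with lines between roles), 1 point per wildtype or knockout pool. Gapdh, Ldha, Pkm and Eno1 lie highest at 1302 to 2608 TPM and Pdk4 lowest at 0.21 to 1.11 TPM. In these values, which were not scaled to a common total per pool, the points of both genotypes overlap for every member.

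Because hypoxia-inducible factor, MYC and related factors are known to bind glycolytic promoters at the core ACGTG, the 250 bases before each start site were searched for ACGTG on both strands (read as CACGT on the other). The windows were RefSeq sequences on GRCm38.p6, and 31 of 33 members had an entry (Slc2a3 and Bsg had none). A match overlaps the E-box CACGTG where both readings meet. Of 51 windows of the members 18 held a match (35.3%), against 16.6% of all 32851 windows, and 14 of 31 members had at least 1, against 18.5% of 27025 genes. Members had more windows per gene than all genes, which raises their share with at least 1 match. Overlapping windows of Aldoa held the same site. Neither was adjusted for. A match is a description of the letters, not a bound site. The windows below belong to Slc2a1, Pgk1 and Slc16a3, which had the lowest p-values or the largest negative fold change among members lower in knockout, to Ldha, whose fold change was near zero, and to Pdk2, the 1 member toward higher values at an unadjusted p under 0.05. Capitals mark the matches, and each window ends at the base before the RefSeq start site.
Slc2a1, chr4:119108495-119108744, plus strand: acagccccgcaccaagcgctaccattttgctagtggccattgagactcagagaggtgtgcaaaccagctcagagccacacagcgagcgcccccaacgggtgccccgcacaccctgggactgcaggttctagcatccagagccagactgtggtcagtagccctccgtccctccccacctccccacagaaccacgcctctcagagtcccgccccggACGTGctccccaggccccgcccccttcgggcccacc
Pgk1, chrX:106186850-106187099, plus strand: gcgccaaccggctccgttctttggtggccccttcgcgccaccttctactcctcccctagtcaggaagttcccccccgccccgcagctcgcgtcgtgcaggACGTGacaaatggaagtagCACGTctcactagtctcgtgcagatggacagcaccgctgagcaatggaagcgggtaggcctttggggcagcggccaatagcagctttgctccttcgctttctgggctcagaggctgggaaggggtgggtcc
Slc16a3, chr11:120948817-120949066, plus strand: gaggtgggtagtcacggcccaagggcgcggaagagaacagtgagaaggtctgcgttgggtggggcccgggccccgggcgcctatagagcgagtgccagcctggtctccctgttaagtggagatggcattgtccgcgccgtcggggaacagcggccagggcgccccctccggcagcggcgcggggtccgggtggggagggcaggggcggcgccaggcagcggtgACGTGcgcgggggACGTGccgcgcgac
Ldha, chr7:46845554-46845803, plus strand: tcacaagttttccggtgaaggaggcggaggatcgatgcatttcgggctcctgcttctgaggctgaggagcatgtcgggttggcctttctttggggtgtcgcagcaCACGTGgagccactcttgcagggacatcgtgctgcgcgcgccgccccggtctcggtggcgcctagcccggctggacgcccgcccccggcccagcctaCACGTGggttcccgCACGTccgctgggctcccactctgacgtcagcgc
Pdk2, chr11:95041372-95041621, minus strand: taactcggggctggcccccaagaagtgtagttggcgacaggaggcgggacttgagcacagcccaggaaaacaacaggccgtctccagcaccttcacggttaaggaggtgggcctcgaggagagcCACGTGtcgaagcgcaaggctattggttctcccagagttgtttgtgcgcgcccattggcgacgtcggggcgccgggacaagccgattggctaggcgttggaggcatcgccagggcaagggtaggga
The Ldha window held 5 matches, those of both E-boxes counted on each strand. The Pdk2 window held 1 E-box, counted as 2 matches, and the Slc2a1 window 1 match, 36 bases before the start. Ldha and Pdk2 each have a second RefSeq window, chr7:46846832-46847081 and chr11:95040876-95041125, with 0 matches. Matches occurred in members with negative and with positive fold changes.

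Of the glucose transporters, Slc2a1 was the more abundant per length, at a mean of 168 TPM against 33.1 TPM for Slc2a3. Slc2a1 encodes the transporter GLUT1 (chr4:119108711-119137983, plus strand, GENCODE M21 on GRCm38, as for the gene spans given next). Slc2a1 stood at 231, 241, 276, 249.98 and 278 CPM in KO1 to KO5 and at 289, 268, 367 and 310.2 CPM in WT1 to WT4. The highest value was that of WT3 and the lowest that of KO1, and the ranges overlapped, since KO3 and KO5 lay above WT2. By edgeR it had a log2 fold change of −0.27 (SE 0.08, adjusted p = 0.104), which was −0.18 without WT3. Slc2a3, the neuronal transporter GLUT3, stood at 54.0, 56.1, 66.4, 56.3 and 63.6 CPM in KO1 to KO5 and at 59.0, 52.2, 62.9 and 57.7 CPM in WT1 to WT4. KO3 was highest and WT2 lowest, the ranges overlapped, and the log2 fold change was 0.03 (95% interval −0.12 to 0.19). As a share of the summed TPM of both transporters, Slc2a3 took 16.5, 18.3, 18.6, 17.2 and 17.8% in KO1 to KO5 and 16.3, 16.4, 13.2 and 15.4% in WT1 to WT4. Every knockout pool thus lay above every wildtype pool, with KO1 just above WT2, and the means differed by 2.34 points. In CPM the share was 18.4 to 19.4% in knockout and 14.6 to 17.0% in wildtype pools, also without overlap.

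Hexokinase traps glucose in the cell as glucose 6-phosphate. Hk1, the widely expressed form, stood at 213, 217, 223, 218 and 229 CPM in KO1 to KO5 and at 208, 194, 219 and 205 CPM in WT1 to WT4. The knockout pools lay in the upper part of the range and WT2 was lowest, with a log2 fold change of 0.09 (95% interval −0.00 to 0.19, adjusted p = 0.310). Hk2 (chr6:82725025-82774454, minus strand), the form of dividing cells and photoreceptors, stood at 22.2, 26.3, 29.0, 23.2 and 30.1 CPM in KO1 to KO5 and at 32.7, 23.8, 37.7 and 35.6 CPM in WT1 to WT4. KO1 and KO4 were lowest and WT3 and WT4 highest, but WT2 lay among the knockout pools, and the log2 fold change was −0.31 (SE 0.13, adjusted p = 0.227). Without WT2 the Hk2 value was −0.44 (edgeR adjusted p = 0.0403), which passed the threshold, and without WT3 it was −0.23. In TPM, Hk2 made up 6.24 to 7.79% of both hexokinases in knockout pools and 7.33 to 9.94% in wildtype pools, so these shares overlapped. Gpi1, the next enzyme, ranged from 446 to 614 CPM (log2 fold change −0.08, 95% interval −0.25 to 0.08).

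Phosphofructokinase commits sugar to glycolysis, and its isozymes all had small fold changes. Pfkp, the platelet form, took 48.7 to 54.7% of the summed TPM of the 3 isozymes, Pfkl, the liver form, 29.8 to 34.9% and Pfkm, the muscle form, 15.5 to 17.7%. In counts, Pfkp ranged from 420.3 to 552 CPM, Pfkl from 184 to 260.2 CPM and Pfkm from 89.9 to 104 CPM. The log2 fold change was −0.12 for Pfkp (95% interval −0.26 to 0.02), −0.08 for Pfkl (−0.25 to 0.08) and −0.01 for Pfkm (−0.11 to 0.09). The Pfkp value was −0.06 without WT4 and −0.19 without KO1 and KO2, and the Pfkl value was −0.0031 without WT3 and −0.02 without KO1 and KO2. The Pfkfb genes encode the enzymes that make or remove fructose 2,6-bisphosphate, the activator of phosphofructokinase. Pfkfb3, the form with the strongest kinase activity, stood at 39.7, 47.0, 51.6, 40.4 and 47.2 CPM in KO1 to KO5 and at 58.8, 49.0, 54.8 and 52.7 CPM in WT1 to WT4. WT1 was highest and KO1 and KO4 lowest, and only KO3 lay within the wildtype range (log2 fold change −0.25, SE 0.08, adjusted p = 0.114). Pfkfb2 ranged from 35.1 to 51.3 CPM (log2 fold change 0.11, 95% interval −0.09 to 0.32; −0.0082 without KO1 and KO2, 0.04 without WT3), Pfkfb1 from 1.87 to 3.36 CPM (0.23, −0.13 to 0.59), and Pfkfb4 from 13.6 to 17.3 CPM (−0.04, −0.22 to 0.13).

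Within the Pfkfb family the shares of TPM were set side by side, with no test. Pfkfb2 took 47.8, 44.5, 41.6, 46.9 and 42.5% in KO1 to KO5 and 40.8, 39.7, 37.3 and 41.0% in WT1 to WT4. The ranges did not overlap in TPM, where the means differed by 5.00 points. In CPM the Pfkfb2 share overlapped, at 36.6 to 45.8% in knockout and 32.2 to 38.7% in wildtype pools. Pfkfb3 took 23.8 to 34.6% in knockout pools and 33.3 to 36.5% in wildtype pools, with means 5.17 points apart and KO3 inside the wildtype range. The plot of isozyme shares shows these families and the others by pool.

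**Figure D3:**
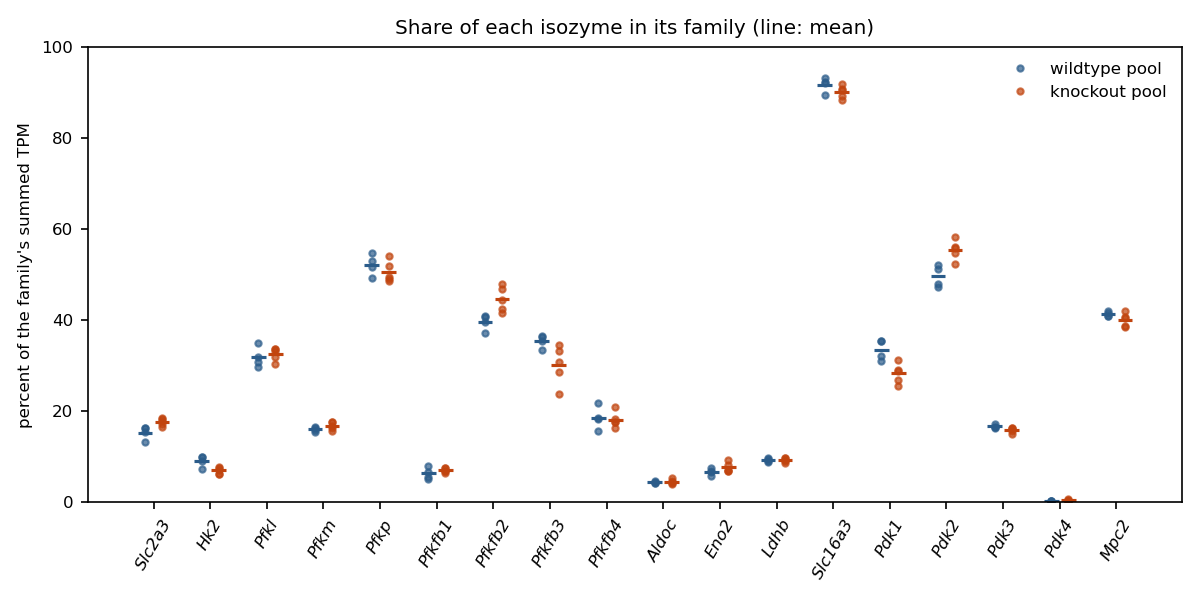
Percent of the summed TPM of its isozyme family (y axis) taken by each member (x axis), 1 point per pool with the genotype mean as a line. Of the 18 shares drawn, those of Slc2a3, Pfkfb2, Pdk2 and Pdk3 have TPM ranges that do not overlap between genotypes. Shares within a family depend on each other (Pdk2 and Pdk3), so these 4 come from 3 families. In CPM 2 of the 18 do not overlap, those of Slc2a3 and Eno2. How often shares of other gene families do not overlap was not computed. For each family of 2, 1 isozyme is omitted as the complement.

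Aldolase splits fructose 1,6-bisphosphate. Aldoa, the main form, stood at 662, 719.6, 793, 719 and 765 CPM in KO1 to KO5 and at 664, 628, 874 and 701 CPM in WT1 to WT4. WT3 was highest and WT2 lowest, so that the wildtype pools enclosed all knockout pools (log2 fold change 0.03, 95% interval −0.15 to 0.21). Aldoc, the form of brain and retina, stood at 46.1, 43.5, 43.2, 43.1 and 49.8 CPM in KO1 to KO5 and at 37.6, 38.5, 51.4 and 46.1 CPM in WT1 to WT4. It too was lowest and highest in wildtype pools, WT1 and WT3 (log2 fold change 0.06, 95% interval −0.13 to 0.25), and it held 3.96 to 5.34% of both aldolases in TPM.

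Pgk1 (chrX:106187100-106203699, plus strand), phosphoglycerate kinase, makes the first ATP of the pathway and was 1 of 2 members with ranges that did not overlap between genotypes in CPM (6.06% of members, against 8.29% of all tested genes). Pgk1 stood at 507, 588, 621, 580.5 and 604 CPM in KO1 to KO5 and at 655, 629, 809.7 and 664 CPM in WT1 to WT4. The highest knockout pool, KO3, lay just under the lowest wildtype pool, WT2, and WT3 was highest. The log2 fold change was −0.25 (SE 0.08, adjusted p = 0.1004), and −0.16 without WT3 (edgeR adjusted p = 0.197). In gene-summed TPM the ranges of Pgk1 overlapped, with knockout at 548 to 697 TPM and wildtype at 686 to 930 TPM. These TPM were not scaled to a common total. KO3, the highest knockout pool, summed to 1030178 and WT2, the lowest wildtype pool, to 991297, so the overlap depends on these totals. Tpi1, triose phosphate isomerase, ranged from 481 to 591 CPM in knockout and from 560 to 757 CPM in wildtype pools (log2 fold change −0.19, adjusted p = 0.255), and its value was −0.09 without WT3. Pgam1, phosphoglycerate mutase, ranged from 353 to 493 CPM (log2 fold change −0.09, 95% interval −0.25 to 0.07).

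Enolase makes phosphoenolpyruvate. Eno1, the form of most and of dividing cells, stood at 1321, 1488, 1573, 1526 and 1587 CPM in KO1 to KO5 and at 1619.9, 1523, 1852 and 1618 CPM in WT1 to WT4. KO1 was lowest and WT3 highest, and the ranges overlapped (log2 fold change −0.14, SE 0.06, adjusted p = 0.294). Eno2, the neuronal form, stood at 139, 142, 128, 125 and 132 CPM in KO1 to KO5 and at 122, 124, 131 and 125 CPM in WT1 to WT4. KO1 and KO2 were highest, and the log2 fold change was 0.09 (95% interval −0.01 to 0.19), and 0.03 without KO1 and KO2. Eno2 held 6.76 to 9.35% of both enolases in knockout and 5.67 to 7.58% in wildtype pools. Pkm, pyruvate kinase, which yields both PKM1 and PKM2 by splicing, stood at 1761, 1897, 2031, 1990.2 and 2032 CPM in KO1 to KO5 and at 2044, 1973, 2435 and 2090.1 CPM in WT1 to WT4. KO1 was lowest and WT3 highest, and KO3 to KO5 lay between WT2 and WT1 (log2 fold change −0.14, 95% interval −0.27 to 0.00, adjusted p = 0.304). Without WT3 the log2 fold changes were −0.08 for Eno1 and −0.07 for Pkm. The transcript rows carry no identifiers, so PKM1 and PKM2 were not separated.

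The deposited counts of Gapdh, the gene of glyceraldehyde 3-phosphate dehydrogenase, were low beside its TPM. The Gapdh row had 42.9 to 54.7 CPM, while the TPM table gave Gapdh 1843 to 2608 TPM. The ratio of CPM per kilobase of exon to TPM was 0.0056 for Gapdh against a median of 0.291 over 9880 genes with at least 10 TPM, of which 4 had a lower ratio. In GENCODE M21, 93 genes had a transcript near-identical to Gapdh (at least 95% identity over at least 50% of the copy). Those tested, 56 in number, held 1608 to 2176 CPM in sum, and 11 of them each held more than the Gapdh row. Gapdh and these copies together stood at 1661, 1867, 1883, 1859.5 and 1909 CPM in KO1 to KO5 and at 1960.3, 1816, 2229 and 1955 CPM in WT1 to WT4, with WT3 highest and KO1 lowest. The Gapdh fold change of −0.04 therefore describes 2.31 to 3.2% of that sum. Smaller copies touch Eno1 (4 copies, 166 CPM in sum), Pgam1 (22.6 CPM), Pgk1 (19.1 CPM) and Mpc1 (13.3 CPM beside 29.7 CPM for Mpc1), and the sources used here do not say how the counting split reads between them.

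**Figure D4:**
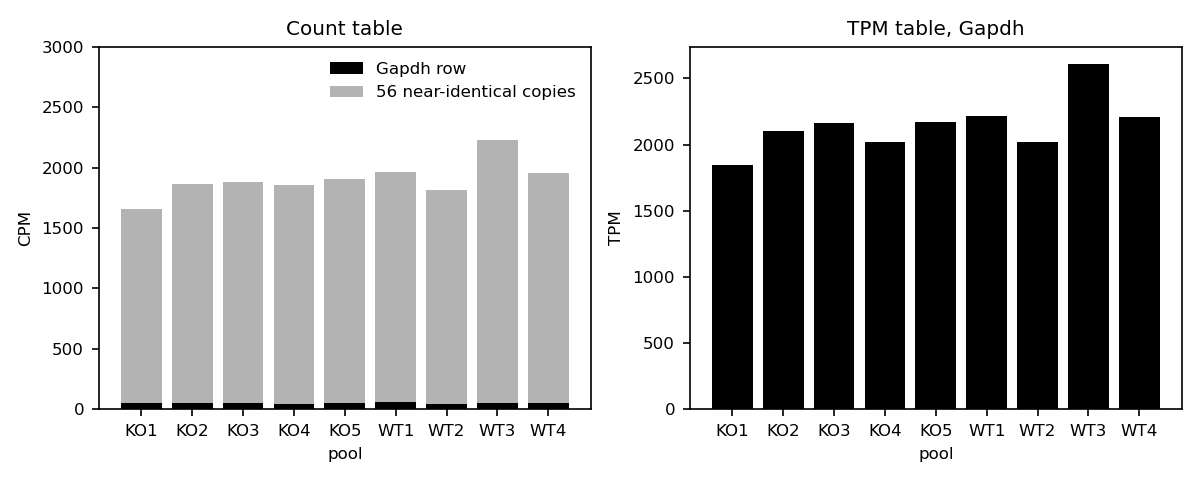
Left, CPM (y axis) of the Gapdh row (black) and of its 56 tested near-identical copies (grey, stacked) in each pool (x axis); right, gene-summed Gapdh TPM in the same pools. The black part is 42.9 to 54.7 CPM of bars that reach 1661 to 2229 CPM, and WT3 is the highest bar in both panels.

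Lactate dehydrogenase turns pyruvate into lactate. Ldha, the form that favours lactate, stood at 1609.6, 1708, 1902, 1749.8 and 1779 CPM in KO1 to KO5 and at 1650.1, 1627, 2014 and 1700.5 CPM in WT1 to WT4. WT3 was highest, KO1 lowest and KO3 second highest, and the log2 fold change was 0.00 (95% interval −0.14 to 0.14, adjusted p = 0.996). Ldhb, the form of oxidative tissues, stood at 135, 141, 137, 136 and 135 CPM in KO1 to KO5 and at 131, 133, 146 and 129 CPM in WT1 to WT4. Apart from WT3, all pools lay between 129 and 141 CPM, with a log2 fold change of 0.02 (95% interval −0.07 to 0.11). Ldhb held 8.64 to 9.79% of the TPM of both genes in knockout pools and 8.74 to 9.62% in wildtype pools.

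Among the carriers, Slc16a3 (chr11:120948480-120960868, plus strand), which encodes the lactate exporter MCT4, stood at 49.3, 59.5, 72.0, 56.5 and 70.5 CPM in KO1 to KO5 and at 74.6, 61.4, 101 and 72.7 CPM in WT1 to WT4. WT3 was highest and KO1 lowest, while KO3 and KO5 lay among the wildtype pools. The log2 fold change was −0.33 (SE 0.13, adjusted p = 0.230), and −0.18 without WT3. Slc16a1, which encodes the carrier MCT1, ranged from 16.7 to 18.9 CPM over all pools (log2 fold change −0.05, 95% interval −0.18 to 0.08). Per length, Slc16a3 took 88.3 to 93.1% of the TPM of both carriers. Bsg ranged from 344 to 416 CPM (log2 fold change 0.01, 95% interval −0.11 to 0.12).

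At the entry of pyruvate into mitochondria, Pdk2 was the other member whose ranges did not overlap in CPM. Pyruvate dehydrogenase kinases switch off pyruvate dehydrogenase, and Pdk2 (chr11:95026258-95041354, minus strand) stood at 84.2, 84.6, 85.5, 91.6 and 82.4 CPM in KO1 to KO5 and at 76.8, 76.3, 81.2 and 72.7 CPM in WT1 to WT4. KO4 was highest, WT4 lowest, and KO5 lay just above WT3. In TPM the Pdk2 ranges overlapped, at 69.3 to 78.0 TPM in knockout and 61.4 to 71.8 TPM in wildtype pools. These TPM were not scaled to a common total. KO1, the lowest knockout pool, summed to 953963 and WT3, the highest wildtype pool, to 1083977, so the overlap depends on these totals. In counts the log2 fold change of Pdk2 was 0.16 (SE 0.05, 95% interval 0.06 to 0.26, adjusted p = 0.0805). Without WT3 it was 0.19 (edgeR adjusted p = 0.0397), a fit in which 2.96% of all genes passed. Pdk1, the kinase known to be induced by hypoxia, stood at 73.7, 90.7, 94.9, 83.8 and 99.1 CPM in KO1 to KO5 and at 98.0, 86.9, 122 and 101 CPM in WT1 to WT4. WT3 was highest and KO1 lowest (log2 fold change −0.20, adjusted p = 0.316; −0.10 without WT3), and Pdk3 ranged from 22.4 to 27.4 CPM (−0.08, 95% interval −0.22 to 0.06).

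The shares of the 4 kinases in their summed TPM lay apart for some. Pdk2 took 58.3, 55.8, 54.8, 56.1 and 52.3% in KO1 to KO5 and 51.2, 52.2, 47.9 and 47.2% in WT1 to WT4. The lowest knockout share, that of KO5, lay above the highest wildtype share, that of WT2, and the means differed by 5.82 points. In CPM the Pdk2 share overlapped, at 39.9 to 46.7% in knockout and 35.1 to 40.8% in wildtype pools. Pdk3 took 14.96 to 16.3% in knockout and 16.4 to 17.2% in wildtype pools in TPM, while in CPM it overlapped, at 11.4 to 12.96% in knockout and 11.8 to 13.03% in wildtype pools. Pdk1 took 25.5 to 31.2% and 30.9 to 35.4% of the TPM, which overlapped. Of all 18 shares, 2 had ranges that did not overlap in CPM, those of Slc2a3 and Eno2, and the Eno2 share overlapped in TPM. Pdha1, a catalytic subunit of the complex, ranged from 113 to 128 CPM and had a log2 fold change of 0.03 (95% interval −0.06 to 0.12). The mitochondrial pyruvate carrier genes Mpc1 and Mpc2 ranged from 27.2 to 33.3 CPM and from 40.2 to 44.5 CPM, with log2 fold changes of 0.05 (−0.09 to 0.19) and −0.04 (−0.15 to 0.06).

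The isoforms were then read as groups. Of 12 isoforms known from proliferating cells, 0 passed the test, 5 had an unadjusted p under 0.05 (all 5 lower in knockout, as were 7.91% of all genes), and the median log2 fold change was −0.14. Without WT3 the median of these 12 was −0.09, with 3 lower and 1 higher at that limit. Of 6 isoforms known from photoreceptors, 0 passed and the median was −0.09. At an unadjusted p under 0.05 there were 2 of these 6 (Slc2a1 and Hk2), lower in knockout, as were 7.91% of all genes. Of the 6, 4 (Slc2a1, Hk2, Pkm and Ldha, so also these 2) are in the proliferating list too, beside Slc16a1 and Bsg, which are not. Of 10 isoforms known from mature neurons and oxidative tissue, 0 passed, 1 (Pdk2) had an unadjusted p under 0.05, and the median was 0.04. Without WT3 the medians of the photoreceptor and neuronal isoforms were −0.05 and 0.08, and 1 of the latter (Pdk2) passed. In that fit 1 photoreceptor isoform lay lower and 3 neuronal isoforms higher at an unadjusted p under 0.05, beside 3141 of all 21543 genes. The difference between these groups was not tested.

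The level of the members was also compared across single pools. For each member the log2 CPM of a pool was taken relative to its mean over 9 pools, leaving out Pdk4. WT3 was the highest of 9 pools for 19 of 32 members, with a median deviation of 0.16, and KO1 the lowest for 14 of 32, with a median deviation of −0.11. The other pools had medians of −0.07 to 0.04. How often WT3 was highest or KO1 lowest among all tested genes was not computed. Over the count table, WT3 differed from the other wildtype pools by a chi-square per degree of freedom of 40.35 to 44.2. Those pools differed from each other by 13.6 to 22.2. Knockout pools differed from each other by 12.1 (KO3 and KO4) to 43.6 (KO1 and KO5), so values of this size were not particular to WT3. Without WT3, the median log2 fold change of the 33 members was −0.01, and 4 lower and 4 higher members had an unadjusted p under 0.05. In that fit 3141 of all 21543 genes, in either direction, were under that limit. Without KO1 and KO2 the median was −0.03, with 4 lower and 1 higher, beside 3036 of all 21374 genes. WT3 was also the pool with the highest red blood cell markers and with low Xist, and KO1 that with the highest lens markers, and their part in the member values was not tested. The map of members by pool shows the columns of WT3 and KO1.

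**Figure D5:**
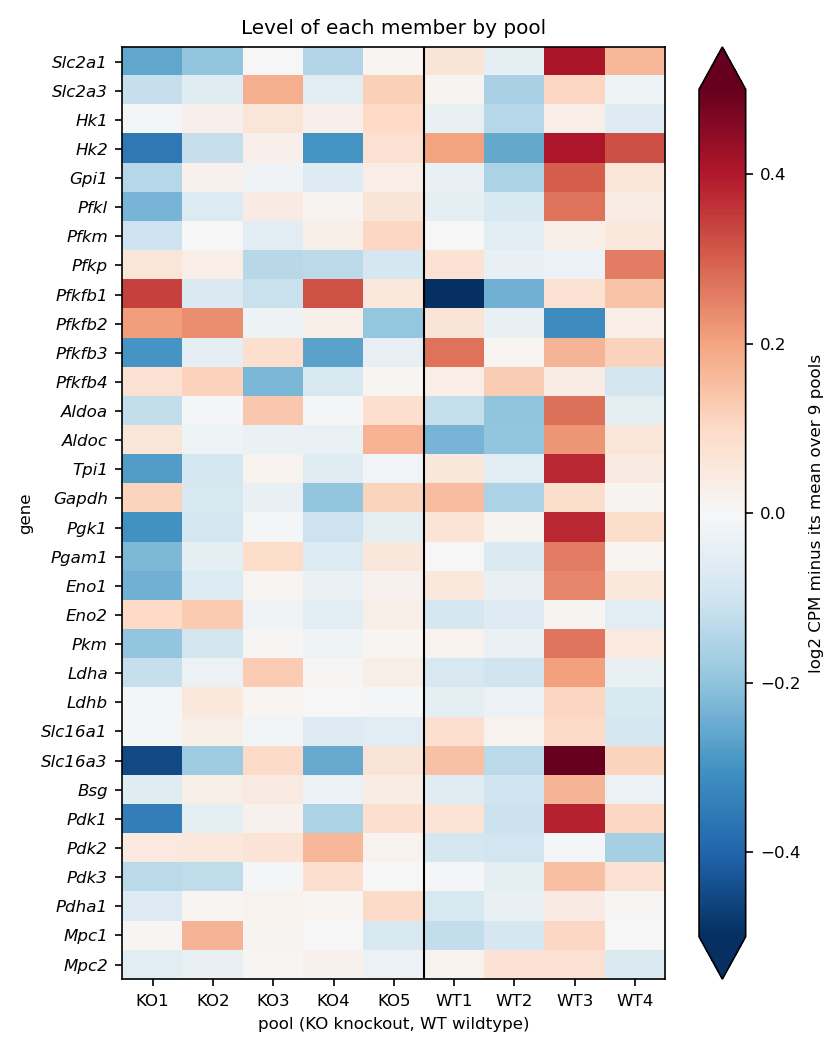
Log2 CPM of each member (rows) in each pool (columns) minus its mean over 9 pools (colour, red higher, blue lower). The WT3 column is red for most rows, being highest for 19 of 32 members, and the KO1 column blue for many, being lowest for 14 of 32.

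At the level of transcripts, 0 of 171 member rows passed the limma test on log2(TPM + 0.5), where 0.178% of all rows passed. At an unadjusted p under 0.05 there were 15 member rows, and 9.24% of all rows. The smallest adjusted p was that of the Pfkp transcript ranked 7 by mean TPM. It held 3.35, 2.87, 3.17, 2.62 and 3.11 TPM in KO1 to KO5 and 4.32, 5.78, 4.91 and 5.63 TPM in WT1 to WT4, which do not overlap (−0.68 on that log2 scale, adjusted p = 0.110). The Hk1 transcript ranked 4 held 19.0, 16.4, 14.5, 15.2 and 12.2 TPM in KO1 to KO5 and 10.1, 9.84, 10.96 and 9.95 TPM in WT1 to WT4, also without overlap (0.56, limma adjusted p = 0.129). The Pfkp and Hk1 rows were picked as those with the smallest p-values among the member rows. The share of all transcript rows without overlap was not computed.

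Genes around the pathway were read in the same fit. Of 24 tested other isozymes and transporters, 1 fell, Slc2a4, which encodes the insulin-responsive transporter GLUT4, where 3.59% of all tested genes passed. Slc2a4 stood at 2.55, 2.69, 2.78, 2.99 and 2.66 CPM in KO1 to KO5 and 4.15, 4.92, 5.71 and 4.64 CPM in WT1 to WT4 (log2 fold change −0.83, SE 0.12, edgeR adjusted p = 0.00177). At an unadjusted p under 0.05, 5 of these 24 lay higher (8.6% of all genes) and 1 lower (7.91%). Of 8 genes of the serine and one-carbon branch, 1 fell, Shmt1, cytosolic serine hydroxymethyltransferase, from 12.1 ± 1.05 CPM (SD, n = 4) to 7.52 ± 0.393 CPM (SD, n = 5), with a log2 fold change of −0.69 (edgeR adjusted p = 0.000532). Of these 8 genes, 5 were at an unadjusted p under 0.05 in the lower direction (7.91% of all genes) and 5 had ranges that did not overlap (8.29% of all genes), with a median of −0.23. They summed to 268 to 311 CPM in knockout and 325 to 356 CPM in wildtype pools. None of 8 pentose phosphate genes, 8 other pyruvate dehydrogenase genes, 13 glycogen genes, 5 tested gluconeogenesis genes and 18 tricarboxylic acid cycle genes passed. At an unadjusted p under 0.05 these held 2, 4, 2, 0 and 5 genes, where 16.5% of all genes were.

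Of 18 genes listed as regulators of glycolysis or of its genes, 5 rose and 0 fell (3.59% of all genes passed). Nxnl1, the gene of the rod-derived cone viability factor, which acts on glucose uptake through basigin and GLUT1, had a log2 fold change of 0.53 (SE 0.07, adjusted p = 0.00107). Ppargc1a, a coactivator of mitochondrial genes, had one of 0.38, and Nrl, the rod-determining factor, which is also in the rod list, one of 0.29. Hif1a, the oxygen-regulated factor, stood at 509, 523, 481, 468 and 477 CPM in KO1 to KO5 and 439, 437, 416 and 442 CPM in WT1 to WT4, all knockout pools above all wildtype pools (log2 fold change 0.18, SE 0.04, adjusted p = 0.0393). Max, the partner of MYC, had a log2 fold change of 0.18 (adjusted p = 0.0473).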

How the data were processed

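Neural retina of 5 Opn4 knockout and 4 wildtype pools was compared. The authors deposited whole-number counts per gene symbol (53280 rows, 65.5 M to 86.1 M per pool), by a program that the sources used here do not name. A second table, deposited by the authors, holds a TPM signal per transcript without identifiers, from kallisto 0.46.1 on GRCm38 after Trimmomatic 0.39, per the submitters' processing notes. Its columns sum to 953963 to 1083977 and not to a fixed total, so its values were rescaled in a way not described there. They were not brought to a common total here before ranges, means or limma tests, so TPM ranges between pools depend on these totals. Of the 118489 rows of the TPM table, 1673 had no symbol (0.612 to 0.833% of a pool's TPM) and 188 a symbol of digits, and both were left out of tests. The authors' deposited table, from sleuth 0.30.8 per the submitters' processing notes, lists a p-value and a q-value for each gene per the file headers. Its deposited effects are on the natural log scale.

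Counts were tested with edgeR 4.0.16 (R 4.3.3): filterByExpr, TMM, quasi-likelihood F test, two-sided, Benjamini-Hochberg adjustment over all tested genes, threshold 0.05. Fold changes are knockout minus wildtype, and intervals cover 95%. DESeq2 1.42.0, other filters and scalings, single pools left out, and limma 3.58.1 on log2(TPM + 0.5) were run as alternatives. That scale understates the change of low genes. Transcript rows were tested with limma where TPM was at least 1 in at least 4 pools. The scripts were tested on simulated data. Copies were found with BLAST 2.17.0 among GENCODE M21 transcripts. Pools came from separate animals, and no pair matched within sampling noise.

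Members, lists and the promoter search were chosen with earlier results of these data known. By the rule for named genes, members past the threshold and the isozyme families Slc2a1 and Slc2a3, Hk1 and Hk2, Aldoa and Aldoc, Eno1 and Eno2, Ldha and Ldhb, and Pkm are given by pool, other members by range and fold change, and genes of other lists where they passed, at most the 5 of a list with the largest change. Pfkfb3, Pgk1, Slc16a3, Pdk1 and Pdk2 are also given by pool, and were chosen after their values were seen.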

Additional observations from a re-analysis of the deposited data

How the results depend on the processing

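Over 592 alternatives for single members, 547 kept direction and side of the threshold, 9 newly passed it and 36 changed sign, and 20 members never changed sign. The count of all called genes was 1509 with DESeq2, 330 with gene-summed TPM and 486 without knockout pools 1 and 2, against 760. The count of called members was 4 with DESeq2, 3 with a replicate block and 0 to 1 with single pools left out, against 0. Without wildtype pool 2 the member called was Hk2, and without wildtype pool 3 Pdk2. With CPM in place of TPM the share of Slc16a3 differed by −3.09 points (−1.59 in TPM) and that of Pdk3 by −0.344 points (−0.818 in TPM). The cause was not tested.

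The replicate block used the 4 numbers both genotypes share and called 3 members (Slc2a1, Pgk1 and Slc16a3, all lower, adjusted p = 0.00895, 0.0305 and 0.0277) and 915 genes, against 0 and 859 in the same 8 pools without it. Same-numbered pools correlated at −0.038 to 0.064 in their deviations, and only pool 3 matched its own number best, so the numbers were not taken as pairs.

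Apart from Pdk4, the values after a sign change were small. With gene-summed TPM, Slc2a3 was at −0.041 and Bsg at −0.0020. Without knockout pools 1 and 2, Pfkm was at 0.018, Pfkfb2 at −0.0082 and Mpc1 at −0.0017. Ldha was at −0.0081 with no filter, −0.0001 with a mean CPM of at least 1, −0.0045 with the block and −0.0075 in its pools with no block. Bsg was at −0.0031 with no filter, −0.0014 with the block and −0.0049 in its pools with no block. With single pools left out, the log2 fold change ranged from −0.019 to 0.074 for Slc2a3, from −0.15 to 0.011 for Gpi1, from −0.042 to 0.014 for Pfkm, from −0.085 to 0.0012 for Pfkfb4, from −0.033 to 0.14 for Aldoa, from −0.0102 to 0.15 for Aldoc, from −0.10 to 0.0002 for Gapdh, from −0.036 to 0.077 for Ldha, from −0.0043 to 0.062 for Ldhb, from −0.0298 to 0.069 for Bsg and from −0.68 to 0.25 for Pdk4. Depth did not allow a fold change of Pdk4 to be read.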

Other observations

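A list of 12 hypoxia-response genes (Bnip3, Vegfa, Egln3, Adm, Ankrd37, P4ha1, Ndrg1, Car9, Ero1l, Mif, Higd1a and Ak4) was read beside the glycolysis genes. The list was chosen after the data were seen, and its Egln3 is also among the regulators of glycolysis read above. None passed the edgeR test (3.59% of all genes did), 5 lay lower and 1 higher at an unadjusted p under 0.05 (7.91% and 8.6% of all genes), and the median log2 fold change was −0.17. WT3 was the highest of 9 pools for 5 of the 12 genes (median deviation 0.26 on the log2 scale) and WT4 for 3, while KO1 was the lowest for 6 (median deviation −0.22). Such ranks were not computed for all genes. Mif, which encodes a cytokine known as a hypoxia target, stood at 169, 188, 213, 204 and 215 CPM in KO1 to KO5 and at 231, 209, 295 and 233 CPM in WT1 to WT4, with WT3 highest and KO1 lowest. Ndrg1, a stress-response gene, lay the other way, with knockout pools at 709 to 815 CPM and wildtype pools at 659 to 669 CPM, which did not overlap (log2 fold change 0.17, edgeR adjusted p = 0.0550). In WT3, which led both lists, red blood cell markers were highest, and their part in these levels was not tested.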
